A study of Mus musculus with 6 samples.

Results

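The genes described here are the 3 TGF-beta ligands (Tgfb1, Tgfb2, Tgfb3), the 3 receptors (Tgfbr1, Tgfbr2, Tgfbr3) and the 4 latent TGF-beta binding proteins (Ltbp1, Ltbp2, Ltbp3, Ltbp4) of the mouse. They were taken by gene symbol, 10 of the 21983 symbols in the count table. Whole liver was profiled by RNA sequencing in 6 C57BL/6 mice, each given thioacetamide (TAA) in the drinking water at 400 mg/L over 16 weeks. TAA is a liver toxin used to produce fibrosis in rodents. The knockout mice (labelled Lrat-Cre; Prmt1f/f, mice 49, 82 and 88) carried a Cre recombinase under Lrat control together with the floxed Prmt1 allele, and the control mice (labelled Prmt1f/f, mice 42, 83 and 90) carried the floxed allele alone. Lrat is expressed in hepatic stellate cells, the retinoid-storing pericytes of the liver, and Prmt1 encodes an arginine methyltransferase. TAA and the floxed allele were shared by all 6 mice, so effects of TAA were not measured, and because no control mouse carried Cre, its own effects and those of losing Prmt1 cannot be told apart. The labels give an age of 10 weeks, which is less than the 16 weeks of TAA, without saying when it applied.

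TGF-beta is made as an inactive complex, in which the propeptide stays folded around the mature growth factor. A latent binding protein is linked to that complex and tethers it to microfibrils of the extracellular matrix, from which integrins and other factors release the active ligand. The free ligand brings together a type II receptor (Tgfbr2) and a type I receptor (Tgfbr1), whose kinase phosphorylates SMAD proteins. In injured liver this pathway is known as a main driver of matrix production by stellate cells and portal fibroblasts.

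Of the 10 genes, 8 had a lower level in knockout than in control livers, against 52.7% of all 13153 genes tested, and the median log2 fold change was -0.47, against -0.02 over all genes tested. In Tgfb1, Tgfb2, Tgfb3 and Ltbp2, 4 of the 10, every knockout liver was below every control liver on the library scaling used here. This was so for 7.95% of all genes tested. The 3 receptors and Ltbp1 overlapped between genotypes and had fold changes near 0 or of either sign. With edgeR's quasi-likelihood test 0 of the 10 passed a Benjamini-Hochberg adjusted p of 0.05, as did 0 (0%) of all genes tested, and the adjusted p of the members ran between 0.323 and 0.994. At an unadjusted p under 0.05 in edgeR there were 3 members (Ltbp2, Tgfb2 and Tgfb1), all lower, where 5.95% of all genes tested were lower by the same measure. DESeq2 called 1 member, Ltbp2 (adjusted p = 0.0461), lower, with 1.81% of all its genes called. Limma-voom called 0 and, with a weight for each library, again Ltbp2 (adjusted p = 0.0439), with 4.26% of all genes called. The 6 livers are few and these levels come from whole tissue, in which fewer cells of a type and less RNA per cell cannot be told apart.

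**Figure D1:**
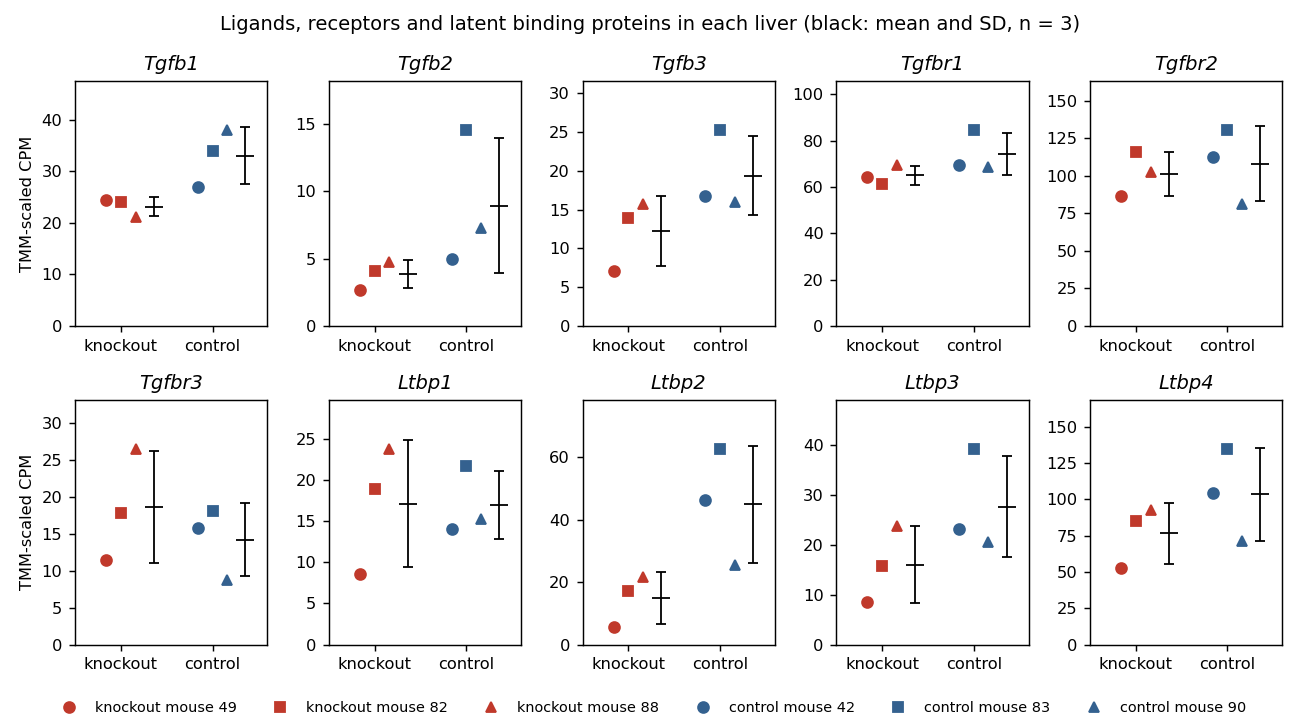
Level of each gene in each liver, as CPM (counts scaled to library size) on a linear axis from 0; red symbols are knockout mice, blue symbols control mice, and black marks the mean and SD of 3 livers. Knockout and control symbols are apart in Tgfb1, Tgfb2, Tgfb3 and Ltbp2 and overlap in the other 6 genes.

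RefSeq promoter windows (GRCm38.p6) were matched for 8 of the 10 genes. The sequences of Ltbp2, Tgfb2 and Tgfb1 are shown because these genes had the smallest p of the 10 and because their stretches differ in motif numbers. Capitals mark CAGAC, the core of the SMAD box, and GGGCGG, the GC box bound by Sp1-type factors, each on either strand. Ltbp2 lies on the minus strand of chromosome 12 and its stretch covers chr12:84876533-84876741. Tgfb2 lies on the minus strand of chromosome 1 (chr1:186705990-186706239), and Tgfb1 on the plus strand of chromosome 7 (chr7:25686752-25687001).
Ltbp2: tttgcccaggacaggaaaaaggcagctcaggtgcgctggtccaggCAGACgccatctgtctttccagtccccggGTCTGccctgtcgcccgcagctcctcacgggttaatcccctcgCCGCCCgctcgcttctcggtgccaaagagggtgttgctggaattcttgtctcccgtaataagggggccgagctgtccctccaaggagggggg
Tgfb2: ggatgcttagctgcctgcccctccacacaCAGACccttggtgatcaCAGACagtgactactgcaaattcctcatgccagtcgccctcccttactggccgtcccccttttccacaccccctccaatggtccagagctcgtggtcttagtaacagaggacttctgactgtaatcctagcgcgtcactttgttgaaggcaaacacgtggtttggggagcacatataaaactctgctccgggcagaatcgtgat
Tgfb1: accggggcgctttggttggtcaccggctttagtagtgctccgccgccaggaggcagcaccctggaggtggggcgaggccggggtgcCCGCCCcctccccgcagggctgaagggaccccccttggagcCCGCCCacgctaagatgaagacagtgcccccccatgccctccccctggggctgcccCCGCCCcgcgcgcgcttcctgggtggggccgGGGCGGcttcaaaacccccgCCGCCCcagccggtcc
The Ltbp2 and Tgfb2 stretches each hold 2 SMAD boxes, beside 1 GC box in the Ltbp2 stretch and 0 in the Tgfb2 stretch. The Ltbp2 stretch was cut to the 209 bases outside the annotated gene. Its full window of 250 bases holds 2 SMAD boxes and 2 GC boxes. That of Tgfb1 holds 0 SMAD boxes and 5 GC boxes, with a G and C content of 75.2%. Among all 32851 promoter windows of 250 upstream bases, 42.2% hold at least 1 SMAD box and 32.7% at least 1 GC box, so neither match is rare. Of the 12 windows of the members (some genes have several start sites), 7 hold a SMAD box and 6 a GC box. The Ltbp4 windows at chr7:27333649-27333898 and chr7:27333664-27333913 share most of their bases. These are thus counts of windows, and not of genes or separate sites. The AP-1 site TGANTCA was found in 0 of these 12 windows and in 6.75% of all windows. These matches describe the letters of the windows and were not tested against the expression values.

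Prmt1, the targeted gene, was measured at 35.8, 24.7 and 25.8 CPM in knockout mice 49, 82 and 88, against 38.9, 44.4 and 49.8 CPM in control mice 42, 83 and 90 (log2 fold change -0.62, SE 0.20, adjusted p = 0.347 in edgeR). The groups did not overlap. The gene did not pass in edgeR, DESeq2 (adjusted p = 0.166) or limma-voom, and was called lower by limma-voom with library weights (adjusted p = 0.0383). Mouse 49 had the highest Prmt1 level of the knockout mice. Total counts lay between 14693392 and 15479415 in knockout libraries and between 13303884 and 16462278 in control libraries. The 8 hepatocyte markers checked (among them Alb, Ttr and Hnf4a) were all expressed, with a summed level, most of it Alb, of 80107 to 94709 CPM in knockout livers and 66390 to 102837 CPM in control livers. Of these 8, 5 had a positive and 3 a negative log2 fold change (median 0.38). Tdo2, Cps1 and Hnf4a were higher in every knockout liver than in any control liver (1.03, 1.04 and 0.65). Their direction was opposite to that of most of the genes described here. Cyp2e1 (1.13), Alb (0.10), Ttr (-0.05), Serpina1a (-0.07) and Apoa1 (-0.42) overlapped between genotypes. The share of all genes tested that were higher in every knockout liver is not given here. Among the 8, edgeR called 0, DESeq2 called 2 higher and limma-voom with library weights 3 higher. Over all genes, DESeq2 called 115 of 13146 higher, and limma-voom with library weights called 4.26% in either direction. The part of these hepatocyte genes in the members' levels was not tested.

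The ligand genes were lower in knockout livers, and Tgfb1, the form most closely tied to fibrosis, was the most even of them. Tgfb1 (chromosome 7, 25687002 to 25705077, plus strand, GRCm38) had 24.5, 24.0 and 21.1 CPM in knockout mice 49, 82 and 88, against 27.1, 34.0 and 38.0 CPM in control mice 42, 83 and 90. The knockout livers lay within 1.16-fold of each other, and the nearest control liver was mouse 42. Its log2 fold change was -0.51 (SE 0.19, 95% interval -0.93 to -0.09, edgeR adjusted p = 0.384), which is 70.2% of the control level on the linear scale.

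Tgfb2 (chromosome 1, 186622792 to 186705989, minus strand) encodes the ligand that depends most on the co-receptor Tgfbr3. It was the ligand with the lowest level and the largest difference. The levels were 2.70, 4.05 and 4.76 CPM in knockout mice 49, 82 and 88, against 4.93, 14.5 and 7.28 CPM in control mice 42, 83 and 90. Between knockout mouse 88 (66 counts) and control mouse 42 (74 counts) the gap was narrow, and control mouse 83 was far above the other livers. On the log2 scale the difference was -1.22, with an SE of 0.43 and a 95% interval of -2.19 to -0.26 (edgeR adjusted p = 0.368). Without control mouse 83 it was -0.67.

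Tgfb3 (chromosome 12, 86056745 to 86079041, minus strand) encodes the third ligand. Its levels were 7.08, 13.9 and 15.7 CPM in knockout mice 49, 82 and 88, against 16.8, 25.3 and 16.0 CPM in control mice 42, 83 and 90. Knockout mice 82 and 88 reached almost to control mouse 90, and mouse 49 was lowest. Relative to total counts alone, knockout mouse 88 (218 of 14704540) was slightly above control mouse 90 (196 of 13303884). The separation of the groups thus depended on the scaling for Tgfb3. Its log2 fold change of -0.67 had an SE of 0.32 and an interval that included 0 (95% interval -1.40 to 0.07, edgeR adjusted p = 0.472), and without knockout mouse 49 and control mouse 83 in turn it was -0.39 and -0.43. Exons of genes on the opposite strand, Ttll5 among them, cover 420 of the 3383 exonic bases of Tgfb3, and the strand setting of the counting is not given in the sources used here. Ttll5 itself was at 10.9 to 12.4 CPM in knockout and 10.5 to 10.7 CPM in control livers.

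The makeup of the ligand counts was not separated by genotype. Tgfb1 made up 71.4%, 57.1% and 50.8% of the 3 ligands' counts in knockout mice 49, 82 and 88, against 55.5%, 46.1% and 62.0% in control mice 42, 83 and 90. Means were 59.8 ± 10.6% in knockout and 54.5 ± 8.01% in control livers (SD, n = 3 each), a difference of 5.27 percentage points with p = 0.6 in the two-sided exact permutation test over 20 assignments of livers. The smallest p this design allows is 0.1. Without knockout mouse 49 the difference was -0.55 points. That liver had 42 counts of Tgfb2 and 110 of Tgfb3, the lowest of the 6 livers in both.

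The signalling receptors differed little between genotypes. Tgfbr1 (chromosome 4, 47353222 to 47414931, plus strand), the type I kinase receptor, had 64.2, 61.3 and 69.6 CPM in knockout mice 49, 82 and 88, against 69.5, 84.6 and 68.7 CPM in control mice 42, 83 and 90. Tgfbr2 (chromosome 9, 116084293 to 116175360, minus strand), the type II receptor that binds the ligand first, had 86.3, 115.6 and 102.5 CPM in knockout mice 49, 82 and 88, against 112.5, 130.5 and 81.2 CPM in control mice 42, 83 and 90. Both overlapped between groups, and in Tgfbr2 the lowest liver was control mouse 90. The 95% interval of the log2 fold change ran between -0.57 and 0.19 for Tgfbr1 (estimate -0.19, SE 0.17) and between -0.59 and 0.41 for Tgfbr2 (estimate -0.09, SE 0.22). Without knockout mouse 49 and without control mouse 83 the sign of Tgfbr2 turned positive (0.02 and 0.07).

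Tgfbr3 (chromosome 5, 107106570 to 107289629, minus strand), betaglycan, is a co-receptor without kinase activity. It was the member with the highest positive fold change. Its levels were 11.4, 17.8 and 26.5 CPM in knockout mice 49, 82 and 88, against 15.8, 18.1 and 8.67 CPM in control mice 42, 83 and 90. Groups overlapped, with knockout mouse 88 highest and control mouse 90 lowest. The log2 fold change of 0.38 had an SE of 0.36 (95% interval -0.43 to 1.20, edgeR adjusted p = 0.701), and without knockout mouse 88 it was -0.0028.

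**Figure D2:**
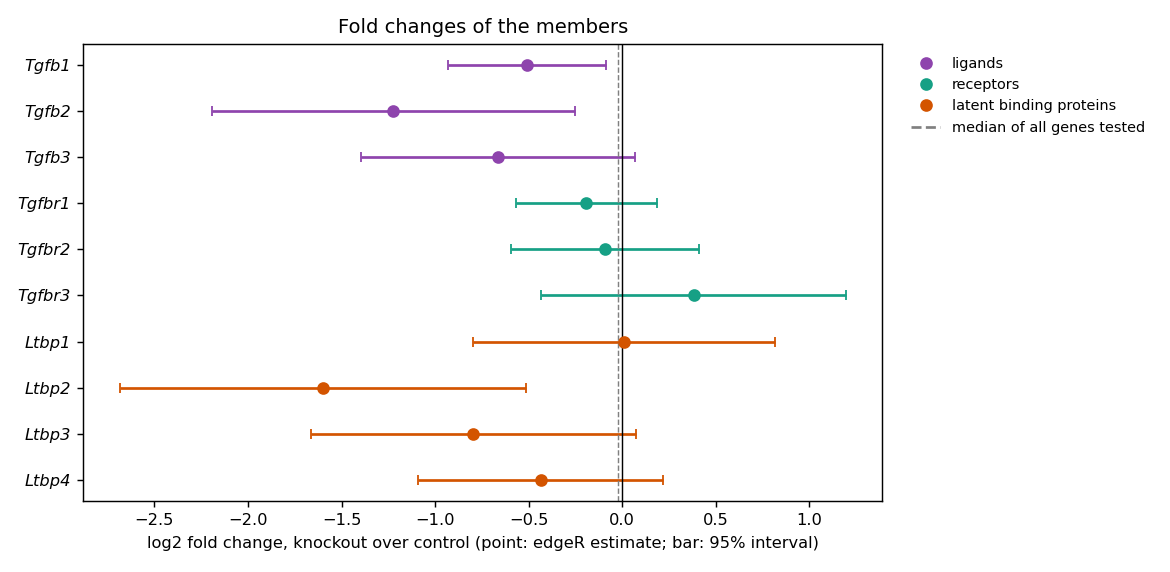
Log2 fold change of knockout over control livers for each gene (points: edgeR estimate; bars: 95% interval; colours: ligands, receptors and latent binding proteins). The intervals of Tgfb1, Tgfb2 and Ltbp2 lie below 0 before any adjustment for the number of genes, and those of the other 7 genes include 0.

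Ltbp2 had the largest difference of the 10. Unlike Ltbp1, Ltbp3 and Ltbp4, the protein does not bind latent TGF-beta; it is a microfibril component that associates with fibrillin and elastic fibres. Ltbp2 (chromosome 12, 84783212 to 84876532, minus strand) had 88, 230 and 300 counts in knockout mice 49, 82 and 88, against 696, 1235 and 311 counts in control mice 42, 83 and 90. Scaled to library size these were 5.67, 17.2 and 21.6 CPM in the knockout mice, against 46.4, 62.8 and 25.4 CPM in the control mice. The groups were apart, with knockout mouse 88 and control mouse 90 closest. The mean was 14.8 ± 8.24 CPM in knockout and 44.9 ± 18.7 CPM in control livers (SD, n = 3 each). Its log2 fold change was -1.60 (SE 0.48, 95% interval -2.69 to -0.52), 33.0% of the control level. Leaving out 1 liver at a time gave -2.02 to -1.21 on this scale. An antisense gene covers 764 of the 8184 exonic bases of Ltbp2 in the GENCODE annotation, and that gene has no row of its own among the values used here.

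The other latent binding proteins ranged from a lower level to nearly no difference. Ltbp3 (chromosome 19, 5740904 to 5758532, plus strand), which binds latent TGF-beta and is best known from bone and tooth, had 8.43, 15.7 and 23.9 CPM in knockout mice 49, 82 and 88, against 23.1, 39.3 and 20.6 CPM in control mice 42, 83 and 90. Knockout mouse 88 exceeded control mice 42 and 90, so the groups overlapped (log2 fold change -0.80, SE 0.38, edgeR adjusted p = 0.471). The value was -0.45 without control mouse 83, -0.49 without knockout mouse 49 and -1.24 without knockout mouse 88.

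Ltbp4 (chromosome 7, 27305136 to 27337692, minus strand), which binds latent TGF-beta1 weakly and takes part in elastic fibre assembly, was the most abundant of the 4. It had 52.3, 84.7 and 92.3 CPM in knockout mice 49, 82 and 88, against 104.1, 134.9 and 71.2 CPM in control mice 42, 83 and 90. Control mouse 90 lay below knockout mice 82 and 88, so the groups overlapped. The log2 fold change was -0.44 (SE 0.29, edgeR adjusted p = 0.59), and it was -0.20 without control mouse 83 and -0.22 without knockout mouse 49.

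Ltbp1 (chromosome 17, 75005568 to 75392512, plus strand), the binding protein first found with latent TGF-beta1, showed no separation of the genotypes. Its levels were 8.63, 19.0 and 23.9 CPM in knockout mice 49, 82 and 88, against 14.0, 21.7 and 15.3 CPM in control mice 42, 83 and 90. Knockout livers held both the lowest and the highest value. Its log2 fold change of 0.01 (SE 0.36) had a 95% interval of -0.80 to 0.82, which spans differences in both directions, and its sign changed with the scaling.

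Within the latent binding proteins the share of Ltbp2 was lower in every knockout liver, a comparison that does not depend on how libraries are scaled. The share uses the same Ltbp2 counts as the fold change above, for the gene with the largest difference of the 10. It is thus not separate evidence. Ltbp2 made up 7.55%, 12.6% and 13.4% of the Ltbp1 to Ltbp4 counts in knockout mice 49, 82 and 88, against 24.7%, 24.3% and 19.2% in control mice 42, 83 and 90. Exact binomial 95% intervals of single livers, which cover counting error only, reached up to 14.9% in knockout mouse 88 and down to 17.3% in control mouse 90. Means were 11.2 ± 3.17% in knockout and 22.7 ± 3.08% in control livers (SD, n = 3 each). The difference of -11.6 percentage points had p = 0.1 in the two-sided exact permutation test, the smallest p the 20 assignments allow, and leaving out each liver gave -13.3 to -9.73 points. Ltbp4 made up the complement for the most part, at 69.7%, 62.0% and 57.1% in knockout mice 49, 82 and 88, against 55.5%, 52.2% and 53.7% in control mice 42, 83 and 90 (exact permutation p = 0.1). For Ltbp1 and Ltbp3 the shares overlapped (exact permutation p = 0.2 for each). The shares of the 4 genes were not adjusted for their number, and they sum to the whole, so they are not independent of each other.

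**Figure D3:**
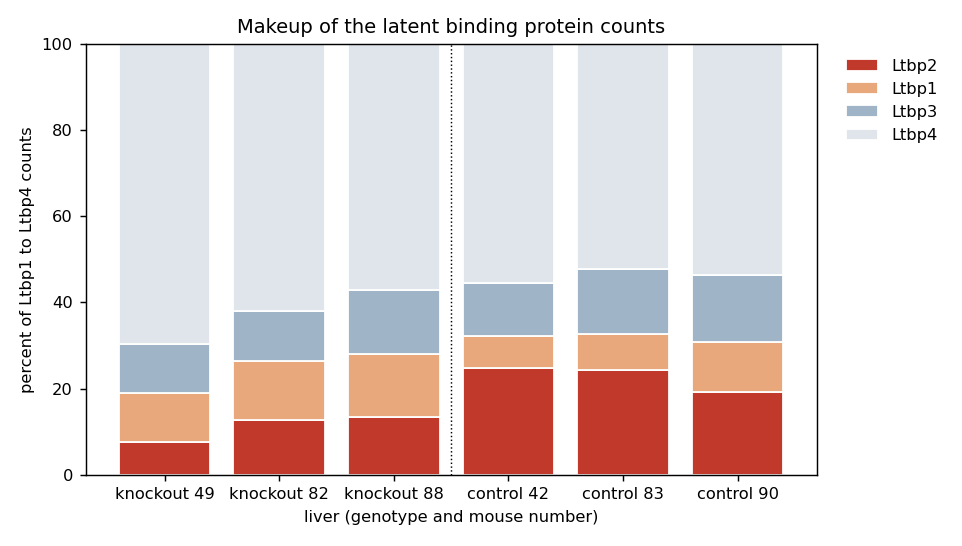
Share of each latent binding protein gene in the summed Ltbp1 to Ltbp4 counts of a liver, in percent, with knockout livers left of the dotted line and control livers right of it. The red Ltbp2 segment is 7.55% to 13.4% in knockout and 19.2% to 24.7% in control livers.

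Per kilobase of exon, the scale on which levels of different genes can be compared, the order in knockout livers started with Tgfbr2 (12.4 ± 1.80 CPM per kb), Ltbp4 (11.8 ± 3.28) and Tgfbr1 (9.95 ± 0.645). In control livers it started with Ltbp4 (16.0 ± 4.92 CPM per kb), Tgfbr2 (13.2 ± 3.04) and Tgfbr1 (11.4 ± 1.37; SD, n = 3 each). In both genotypes these 3 genes were separated from the next, Tgfb1, which had 4.60 ± 0.359 CPM per kb in knockout and 6.55 ± 1.10 CPM per kb in control livers. Among the remaining genes the ranges of neighbours in the order overlapped in both genotypes. Ltbp2 stood seventh in knockout livers at 1.81 ± 1.01 CPM per kb and sixth in control livers at 5.48 ± 2.29 CPM per kb, and Tgfb2 was last in both, at 0.662 ± 0.18 and 1.54 ± 0.864 CPM per kb in knockout and control livers.

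The spread among mice of one genotype followed the same animals in most of the genes. Control mouse 83 had the highest level of the control mice in 9 of the 10 genes and of all 6 livers in 7. Knockout mouse 49 had the lowest level of the knockout mice in 8 of the 10 genes and of all livers in 6, while knockout mouse 88 was the highest knockout mouse in 8. Measured against the control mean of each gene, the median deviation was -0.94, -0.35 and -0.13 log2 for knockout mice 49, 82 and 88, against -0.13, 0.41 and -0.30 log2 for control mice 42, 83 and 90. Without knockout mouse 49 the median log2 fold change of the 10 genes was -0.30, and without control mouse 83 it was -0.31, in place of -0.47. The deviations of Tgfb1 ran apart from the rest, since mouse 88 was its lowest liver and mouse 90 its highest.

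**Figure D4:**
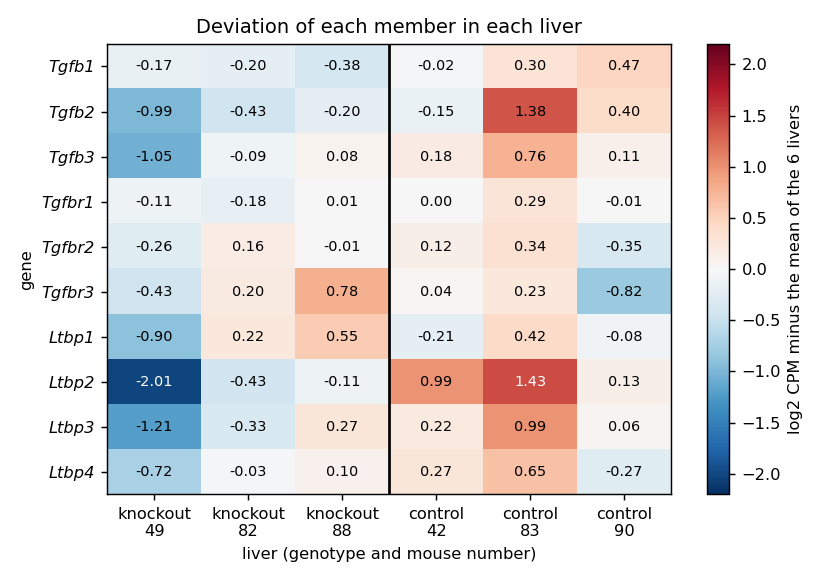
Log2 CPM of each gene in each liver minus its mean over the 6 livers (blue: below, red: above; knockout livers left of the black line). Mouse 49 is below the mean in all 10 genes, down to -2.01 in Ltbp2, and mouse 83 is above it in all 10, up to 1.43 in Ltbp2.

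Summed markers of some cell types were apart between genotypes and those of others overlapped, and edgeR called 0 of the markers. The 14 stellate cell markers summed to 269.6 to 446.5 CPM in knockout livers and 562.2 to 606.6 CPM in control livers, with 13 of 14 lower. The 13 markers of portal fibroblasts and mesothelium summed to 66.0 to 115.6 CPM in knockout and 146.2 to 237.9 CPM in control livers, with 9 of the 12 tested lower. Neither sum overlapped between genotypes, and knockout mouse 49 was lowest in both. Taken singly, 4 of the 14 stellate and 4 of the 12 tested portal markers were lower in every knockout liver. The rest of both sets overlapped, and 7.95% of all genes tested were lower in every knockout liver. Endothelial markers overlapped at 449.1 to 673.7 CPM in knockout and 534.6 to 732.1 CPM in control livers, with 7 of 13 lower. Macrophage markers overlapped as well (408.4 to 544.8 CPM in knockout, 292.3 to 660.6 CPM in control livers, 5 of 11 tested lower, Trem2 listed at 0 in every liver). Lymphocyte markers stood at 8.17 to 9.44 CPM in knockout and 8.13 to 28.5 CPM in control livers, with 8 of 8 tested lower. The neutrophil sum did not overlap, at 11.8 to 17.6 CPM in knockout and 18.4 to 83.1 CPM in control livers. All 5 of 5 tested were lower, 3 of them in every knockout liver. Platelet markers summed to 6.22 to 7.86 CPM in knockout and 8.53 to 10.7 CPM in control livers, with Gp1bb and Treml1 at 0 in all 6. Only 2 of the 7 platelet genes, Pf4 and Itga2b, were tested. Both were lower, and each overlapped between genotypes. Bile duct markers overlapped (306.5 to 777.7 CPM in knockout, 552.8 to 1348 CPM in control livers, 7 of 8 lower). The part of these cell types in the levels of the ligands and of Ltbp2 was not tested.

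Genes whose pattern over the 6 livers lay nearest to a member were sought among 12752 genes, by the root mean square (RMS) difference of centred log2 CPM. Nearest to Ltbp2 were Mfap4, a microfibril-associated glycoprotein of elastic fibres (0.206), and Pls1, an actin-bundling protein (0.278). Mfap4 is also on the list of portal fibroblast markers. Mfap4 had 1.93, 4.95 and 5.76 CPM in knockout mice 49, 82 and 88, against 11.5, 14.6 and 8.02 CPM in control mice 42, 83 and 90, the same order of livers as Ltbp2. Nearest to Tgfb1 were Alg14 (0.0454) and Reep5 (0.0472), to Tgfb3 Obsl1 (0.0766) and Cavin1 (0.0943), to Tgfbr2 Cep19 (0.052) and Lrrc20 (0.0614), and to Ltbp1 Slc27a1 (0.0852) and Lamb2 (0.0852). The median gene stood 1.15 log2 from Ltbp2 and 0.423 from Tgfb1. Over so few livers close patterns arise for many pairs of genes, and the likeness is given as a description.

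Among the genes that store or release latent TGF-beta, 14 of 18 were lower in knockout livers (median log2 fold change -0.37), against 52.7% of all genes tested. The edgeR test passed 0 of the 18. DESeq2 called 1.81% of all its genes and 1 of the 18. That gene was Thbs1, thrombospondin 1, which can activate latent TGF-beta. It had 11.3, 11.6 and 12.2 CPM in knockout mice 49, 82 and 88, against 37.4, 43.6 and 24.1 CPM in control mice 42, 83 and 90 (log2 fold change -1.58, SE 0.24, edgeR adjusted p = 0.17), with the groups apart. Fbn2, a fibrillin of the microfibrils to which latent complexes are anchored, had 2.70, 3.97 and 6.34 CPM in knockout mice 49, 82 and 88, against 20.1, 12.4 and 4.25 CPM in control mice 42, 83 and 90, with control mouse 90 inside the knockout range. Of the co-receptors and receptor regulators 7 of 11 tested were lower (median -0.21) and 0 passed in edgeR or DESeq2. Pmepa1, a SMAD-induced inhibitor of the pathway, was at 11.1, 16.4 and 17.8 CPM in the knockout mice, against 24.3, 36.8 and 24.6 CPM in the control mice (-0.92, SE 0.25), and was called by limma-voom with library weights (adjusted p = 0.0403). Tgfbrap1, a receptor-associated protein, was higher, at 65.9, 66.3 and 65.3 CPM in knockout mice, against 61.0, 44.1 and 33.5 CPM in control mice (0.51, SE 0.22).

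SMAD genes were evenly divided. Of 14 tested, 7 were lower and 7 higher, with a median log2 fold change of -0.06 and 0 passing in edgeR or DESeq2. Smad7, the inhibitory SMAD induced by TGF-beta, had a log2 fold change of -0.55 (SE 0.24) with overlapping groups, and the repressor Tgif1 one of -0.52 (SE 0.20) with groups that nearly touch at 22.7 CPM in knockout mouse 49 and 22.8 CPM in control mouse 83. Of the genes known to respond to TGF-beta 14 of 16 tested were lower (median -0.83), against 52.7% of all genes tested. The edgeR test passed 0 of the 16. DESeq2 called 6 of them, all lower, and 123 of all its 13146 genes lower. The list was chosen with earlier results of these data known. Timp1 (-2.80, SE 0.33), a metalloproteinase inhibitor, and Lox (-3.06, SE 0.42), a collagen cross-linking enzyme, had the smallest p. The 2 genes of the list with a positive log2 fold change were Fn1, fibronectin (0.42, SE 0.28), and Snai2, a transcriptional repressor (0.05). Both had overlapping groups. Snai1, counted among the 14 lower genes, had a log2 fold change of only -3.5e-05. Cthrc1, another gene of the list, is listed at 0 in every liver. Fn1 and Snai2 were singled out after their values were seen.

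Other ligands of the TGF-beta superfamily were lower in 13 of 15 tested (median -0.36), against 52.7% of all genes tested. Inhbc, counted among the 13, had a log2 fold change of only -0.00048. Lower in every knockout liver were 2 of the 15, against 7.95% of all genes tested. Receptors of these ligands were higher in 6 of 8 (median 0.12). Of the ligands and of the receptors 0 passed in edgeR or DESeq2. Gdf10, also called BMP3B, had 14.4, 32.4 and 34.3 CPM in knockout mice 49, 82 and 88, against 41.0, 40.9 and 51.2 CPM in control mice 42, 83 and 90 (-0.72, SE 0.31). Inhbb, an activin subunit, was at -0.50 (SE 0.23). Among the receptors the smallest p belonged to the type II activin receptors Acvr2b (0.66, SE 0.36) and Acvr2a (0.28, SE 0.19), both with overlapping groups. Extracellular antagonists were lower in 2 of 6 tested (median 0.29). One of those, Fstl1, a secreted follistatin-like glycoprotein of mesenchymal cells, had 14.9, 31.6 and 27.3 CPM in knockout mice 49, 82 and 88, against 65.5, 71.9 and 44.7 CPM in control mice 42, 83 and 90 (-1.31, SE 0.30) and was called by DESeq2 (adjusted p = 0.0106) but not by edgeR (adjusted p = 0.267). The BMP antagonist Chrd was higher, at 7.98, 5.92 and 7.21 CPM in the knockout mice, against 5.0, 3.56 and 4.17 CPM in the control mice (0.73, SE 0.27, edgeR adjusted p = 0.386).

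**Figure D5:**
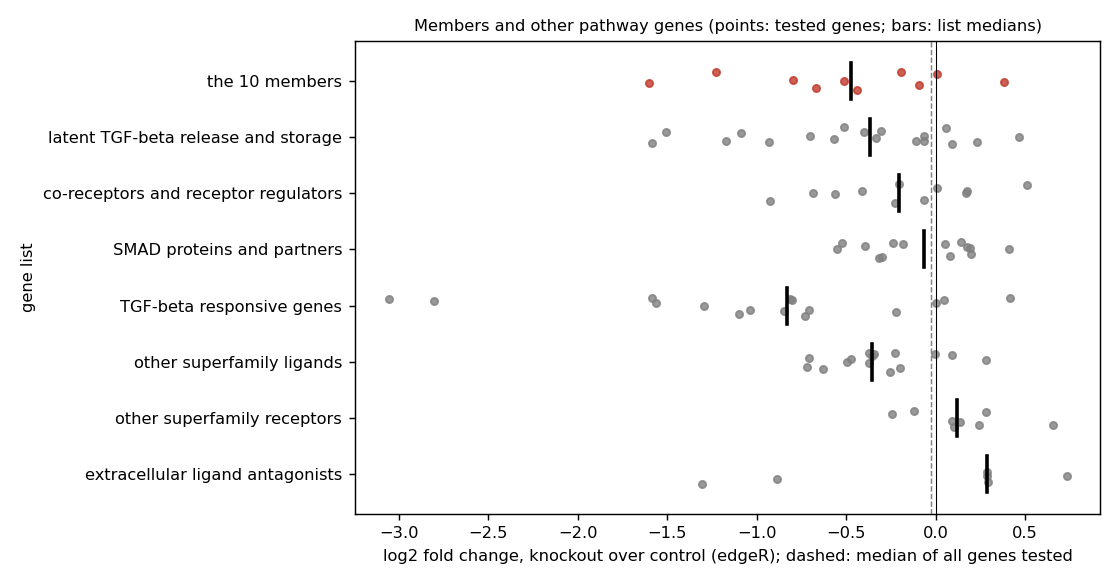
Log2 fold change (knockout over control, edgeR) of the 10 genes described here (red) and of the tested genes of 7 other lists of the pathway (grey), with black bars at list medians and a dashed line at the median of all genes tested. Medians run from -0.83 in the responsive genes to 0.29 in the antagonists.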

How the data were processed

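Total RNA of whole liver was sequenced in 3 knockout and 3 control mice. Raw counts per gene symbol were deposited by the authors in 1 table, with 1 column per mouse. The genome mm10 and the tools STAR, HTSeq, Trimmomatic and FastQC appear, without versions, per the submitters' processing notes. The sources used here do not give the annotation, the strand setting or how reads shared by similar genes were counted. Columns were assigned by mouse number, which the genotypes do not share, so no pairing was used.

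After filterByExpr, 13153 genes remained, all 10 members among them. TMM factors scaled the libraries, and edgeR 4.0.16 (R 4.3.3) fitted its quasi-likelihood model, with genotype as the term and Benjamini-Hochberg adjustment over all genes tested at 0.05. CPM are counts over the TMM-scaled library size. Standard errors come from the fold change and its F statistic, and intervals are at 95%. DESeq2 1.42.0 and limma-voom (limma 3.58.1) were alternatives, as were other scalings and filters, a term for mouse number and each liver left out. The fit was run on simulated data, drawn gene by gene with the dispersions of the same fit. Those data hold no shift shared by the genes of a liver, so they check only that the fit runs as written. Depth was 13303884 to 16462278 counts per liver, and the members had 42 to 2654 counts. Positions and exon lengths were read from GENCODE M21 (GRCm38, which UCSC calls mm10).

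All members were named, with the 2 genes of smallest p of each of 7 pathway lists and the 2 genes nearest in pattern to Tgfb1, Tgfb3, Tgfbr2, Ltbp1 and Ltbp2. Members, lists and markers were chosen with earlier results of these data known.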

Additional observations from a re-analysis of the deposited data

How the results depend on the processing

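The direction of Tgfb1, Tgfb2, Tgfb3, Tgfbr1, Ltbp2, Ltbp3 and Ltbp4 was kept under all 15 alternatives run. Genes called over all genes were 0 in the fit of the report (1448 at an unadjusted p under 0.05), 4 with no low-count filter, 238 in DESeq2, 560 in limma-voom with library weights, 6 with the term for mouse number, 3 at an adjusted p of 0.10 and 0 to 13 when 1 liver was left out, 13 being without knockout mouse 49. DESeq2 and limma-voom with library weights called 1 member (Ltbp2); the others called 0. Over the alternatives the adjusted p of Ltbp2 ran between 0.0439 and 0.839. The number of members with a negative fold change was 7 to 10, and the median log2 fold change of the members -0.64 to -0.30. The first of these medians came with total counts as the only scaling, which moved the median of all genes to -0.17 against -0.02.

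Ltbp1 turned negative with total counts only (-0.18), no low-count filter (-0.018), limma-voom (-0.12), the 20 most abundant genes left out (-0.024) and the term for mouse number (-0.083), and spanned -0.34 to 0.33 when 1 liver was left out. Under the same leaving out Tgfbr2 spanned -0.31 to 0.066, Tgfbr3 -0.0028 to 0.64 and the difference in the Tgfb1 share of ligand counts -0.55 to 9.77 percentage points. The cause of these turns was not tested. Counts per kilobase changed the difference in the Ltbp2 share to -10.5 points. The term for mouse number set mice 42 and 49 against those over 80, a split the labels do not call a batch. No paired analysis was possible because the genotypes share no mouse number.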
